A study of Homo sapiens with 6 samples.

Results

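The interferon response genes are a set of human genes whose transcripts rise in cells exposed to interferon. Of the 40 genes named for this set, 37 were rows of the deposited table of 16659 genes, and they were found in the table by their gene symbols. All 37 were above the filter on low values and were tested. IFITM1, RSAD2 and CMPK2 were not analysed here. The table came from RNA sequencing of HepaRG cells, a human liver cancer cell line with properties of a hepatic stem cell that can form hepatocyte-like and bile-duct-like cells. One group of 3 libraries came from HepaRG cells with a functional knockout of PXR, and the other group of 3 libraries came from wild-type HepaRG cells, which served as the control. Neither group received a drug. PXR, encoded by NR1I2, is a nuclear receptor that senses drugs and other foreign compounds. How the knockout was made, and from how many clones, is not given in the sources used here. The labels do not say whether the libraries of a group are separate cultures. Their spread, on which every p-value rests, may therefore be technical.

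Interferons are secreted proteins that warn neighbouring cells of a virus. Type I interferons bind a receptor made of IFNAR1 and IFNAR2, which carries the kinases TYK2 and JAK1. Their signal leads STAT2 and IRF9 to assemble in a factor called ISGF3, and ISGF3 binds a DNA element, the interferon-stimulated response element, in the promoters of its targets. Many targets are themselves sensors, signalling proteins or antiviral effectors, and hepatocytes use this system against hepatitis viruses.

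The values were scaled counts (scaled CPM), given here as the value in each library, or as the mean ± SD over the 3 libraries of a group. They summed to 1028470 to 1042826 in knockout libraries and 936409 to 947974 in wild-type libraries, so they were not scaled by library size alone. Differences are log2 fold changes, knockout minus wild type, with their standard errors taken after adding 0.5 to each value, so that changes of low genes are understated. The knockout libraries held an estimated 28154914 to 33393110 reads and the wild-type libraries 11359209 to 20945994, so every knockout library was deeper than every wild-type library, and 1 read was worth 0.0308 to 0.0824 scaled CPM. Pearson correlations of log2 values between libraries were 0.995 to 0.997 within a group and 0.869 to 0.871 between the groups. NR1I2 itself had 13.1, 13.4 and 14.3 scaled CPM in knockout libraries, against 8.24, 7.04 and 7.60 in wild-type libraries. It was higher in the libraries labelled as knockout (log2 fold change 0.80 ± 0.08, adjusted p = 6.77e-07), and a value over the whole gene does not check whether the protein works. All 9 measured hepatocyte markers of 10 listed were higher in knockout cells, against 40.3% of all tested genes. Their summed level was 42981 to 44184 scaled CPM in knockout libraries and 2226 to 2299 in wild-type libraries. Among them, APOA2 had 0.659, 0.191 and 0.18 scaled CPM in wild-type libraries, all under the filter, so it was tested because knockout cells had it. Of 22 leukocyte markers, 4 were rows of the table (LYZ, CD14, CD68 and ITGAM), and their summed level was 37.2 to 38.5 scaled CPM in knockout libraries and 21.9 to 25.5 in wild-type libraries. LYZ, CD68 and ITGAM were higher and CD14 was lower, and the other 18 leukocyte markers, PTPRC among them, were not analysed here. Of 6 bile duct markers, 4 were rows of the table, with a summed level of 373 to 399 scaled CPM in knockout libraries and 489 to 515 in wild-type libraries. KRT19 (log2 fold change 1.58) and SOX9 (0.55) were higher, while SPP1 (-3.12) and KRT7 (-0.58) were lower. KRT7 had 0.801, 0.852 and 0.965 scaled CPM in knockout libraries, all under the filter, so it was tested because wild-type cells had it. In bulk RNA, more cells of a type and more RNA per cell cannot be told apart, and the part of these shifts in the results was not tested.

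Promoter sequence was examined because ISGF3 acts on its targets through binding to DNA. RefSeq windows from 250 bases before to 50 bases after the gene start (GRCh38.p14) were found for 30 of the 37 genes. IFIT2, IFITM2, USP18, OAS2, OASL, TRIM22 and IRF7 had no window in the table used. The core of the response element was searched on both strands as GAAA, any 2 bases and GAAA again, which on the other strand is TTTC, any 2 bases and TTTC. At least 1 match lay in the windows of 21 of the 30 genes (70.0%), against 465 of 11130 tested genes with a window (4.18%) and 3.57% of all 35116 windows. A match was present in 13 of 22 genes that were higher in knockout cells, in 4 of 4 that were lower and in 4 of 4 that did not pass the test. STAT2, IRF1, IRF9, OAS1, DDX58, XAF1, IFI35, HERC6 and SAMD9L had no match in their windows. The STAT dimer motif TTCNNNGAA, which reads the same on both strands, was in the windows of 9 of the 30 genes, against 8.72% of tested genes with a window, and in 4 member windows a match to it overlapped a match to the first motif. A match describes letters and is not evidence of binding.

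The stretches below show the matches in capitals with 10 flanking bases on each side, 5′ to 3′ on the strand of the gene, from RefSeq windows of GRCh38.p14. They are shown because genes with closely similar elements differed in direction. The first 5 belong to genes that were higher in knockout cells.
IFIT1, chr10:89392497-89392539, plus strand: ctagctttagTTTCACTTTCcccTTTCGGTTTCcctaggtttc
ISG15, chr1:1013374-1013409, plus strand: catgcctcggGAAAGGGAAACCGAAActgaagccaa
IFITM3, chr11:320876-320922, minus strand: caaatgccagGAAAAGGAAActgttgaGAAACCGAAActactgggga
MX1, chr21:41420559-41420588, plus strand: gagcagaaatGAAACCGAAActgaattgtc
SAMD9, chr7:93118096-93118125, minus strand: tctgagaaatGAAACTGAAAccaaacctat
The next 4 belong to the genes that were lower in knockout cells.
IFI27, chr14:94110618-94110660, plus strand: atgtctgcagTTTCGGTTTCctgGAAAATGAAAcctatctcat
IFI6, chr1:27672266-27672317, minus strand: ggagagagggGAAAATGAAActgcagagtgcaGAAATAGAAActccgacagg
BST2, chr19:17405735-17405770, minus strand: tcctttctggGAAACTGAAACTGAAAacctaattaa
LGALS3BP, chr17:78979962-78979991, minus strand: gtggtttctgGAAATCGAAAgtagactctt
The last 3 belong to genes that did not pass the test.
IFIH1, chr2:162318818-162318853, minus strand: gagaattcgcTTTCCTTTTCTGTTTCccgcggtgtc
OAS3, chr12:112938321-112938350, plus strand: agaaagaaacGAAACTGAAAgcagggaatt
IFI44, chr1:78649761-78649790, plus strand: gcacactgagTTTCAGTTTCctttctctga
The 10-base match in SAMD9, which was higher, has the same letters as the one in OAS3, which did not pass the test, and as the first of the overlapping matches in BST2, which was lower.

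Most interferon response genes were higher in PXR knockout cells, with TRIM22, XAF1 and MX1 among the largest rises, while IFI27, LGALS3BP, IFI6 and BST2 were lower. With limma's test and Benjamini-Hochberg adjustment over all 16219 tested genes at an adjusted p under 0.05, 28 of the 37 genes were higher (75.7%) and 4 were lower (10.8%). The background was 40.3% of all tested genes called higher, 39.6% called lower and 79.9% called in either direction. The genes of this set and of the lists below were chosen with earlier results of these data known. Their shares are therefore not independent of that choice. IFIH1, OAS3, OASL, IFI44 and IFI44L did not pass the threshold. The median log2 fold change of the 37 genes was 0.57, against 0.014 over all tested genes. With each library scaled to the same sum, the median over all genes moved to -0.12 and that of the 37 genes to 0.44, with 25 of them higher and 5 lower; the log2 fold changes of OAS3, OASL and IFI44, none past the threshold, were then -0.092, -0.068 and -0.032. A rise of at least 2-fold was found for 12 of the 37 genes, against 12.6% of all tested genes, and a fall of at least 2-fold for 2 genes, against 10.1%. In 28 genes every knockout library was above every wild-type library, against 40.8% of all tested genes, in 4 every knockout library was below, against 40.0%, and in 5 the groups overlapped. The groups did not overlap, in either direction, in 80.8% of all tested genes.

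**Figure D1:**
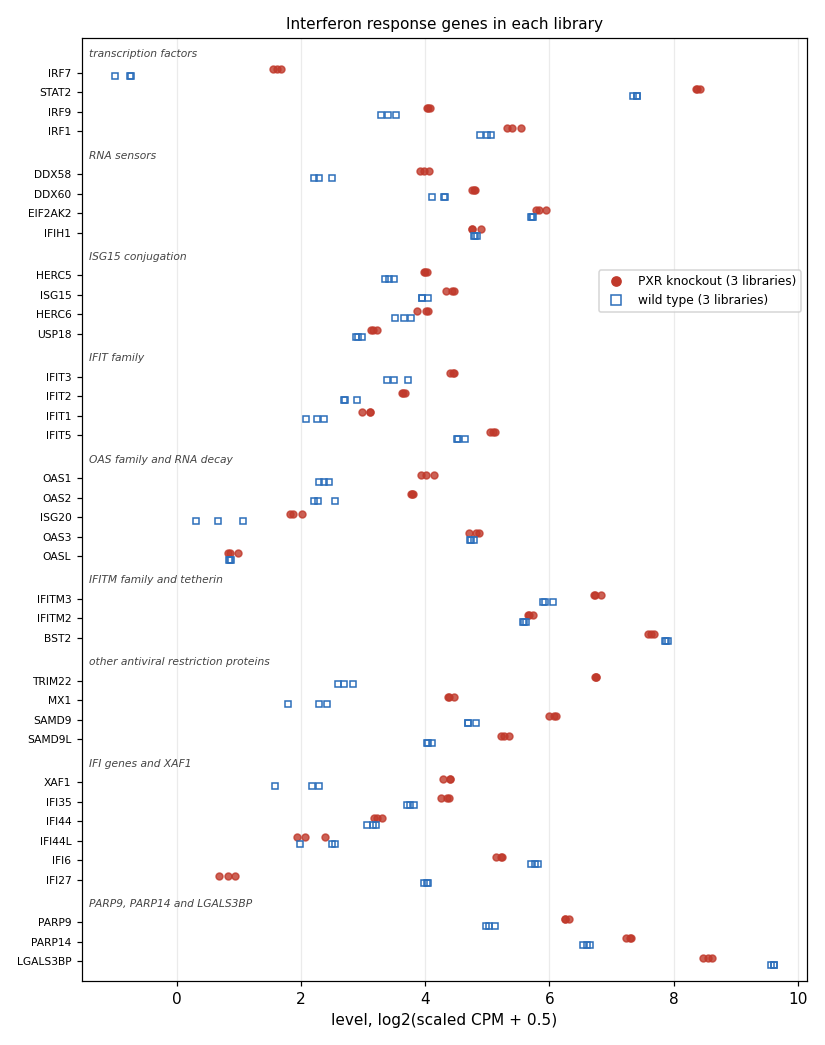
Level of each of the 37 interferon response genes in each library, as log2(scaled CPM + 0.5), grouped by role; red points are the 3 PXR knockout libraries and blue squares the 3 wild-type libraries. TRIM22, MX1, XAF1 and IRF7 have red points far to the right of the blue squares, IFI27 shows the opposite order, and the squares and points of IFIH1, OAS3, OASL, IFI44 and IFI44L overlap.

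**Figure D2:**
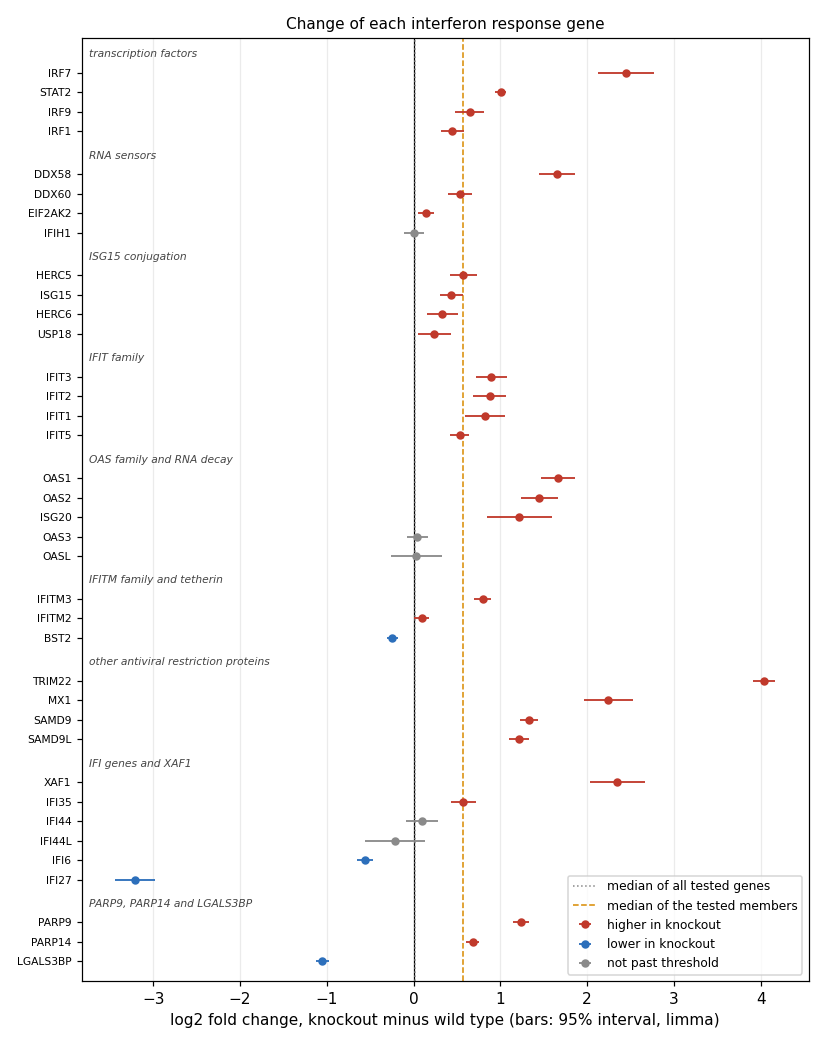
Log2 fold change of each interferon response gene, knockout minus wild type, with its 95% interval from limma; red is higher, blue is lower and grey did not pass the threshold. The dashed line is the median of the 37 genes at 0.57 and the dotted line the median of all tested genes at 0.014; 28 intervals lie right of 0 and 4 left of it.

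All 4 transcription factors of the set were higher in knockout cells, against 40.3% of all tested genes. STAT2, the transactivating subunit of ISGF3 (chr12:56341597-56360155, GRCh38), had 330, 332 and 345 scaled CPM in knockout libraries, against 162, 169 and 170 in wild-type libraries. Its log2 fold change was 1.004 ± 0.029 (adjusted p = 4.63e-13), and no library of one group reached the range of the other. The median log2 fold change of the 844 tested genes of chromosome 12 was 0.33, and its part in the value of STAT2 was not tested. IRF9, the DNA-binding subunit of ISGF3, had 16.0, 16.3 and 15.8 scaled CPM in knockout libraries, against 10, 11.0 and 9.25 in wild-type libraries (log2 fold change 0.65 ± 0.08, adjusted p = 2.6e-06). An annotated gene on the same strand, AL136295.5, overlaps exons of IRF9 and was lower in knockout cells (log2 fold change -0.74), so the split of reads between them is uncertain. IRF1, a factor induced most strongly by interferon gamma, had 39.5, 41.5 and 46.2 scaled CPM in knockout libraries, against 32.7, 31.5 and 28.9 in wild-type libraries (log2 fold change 0.44 ± 0.06, adjusted p = 1.12e-05). Exons of 2 antisense genes, AC116366.3 and C5orf56, overlap those of IRF1, with log2 fold changes of 0.15 (adjusted p = 0.646) and 0.62 (adjusted p = 0.000126).

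IRF7, the factor that amplifies type I interferon production, was close to the detection limit in wild-type cells. It had 2.43, 2.70 and 2.55 scaled CPM in knockout libraries, against 0, 0.0957 and 0.09 in wild-type libraries. These values stand for 234 estimated reads over the 3 knockout libraries and 4 over the 3 wild-type libraries. The fitted log2 fold change of 2.45 ± 0.15 (adjusted p = 1.62e-09) depends on the pseudocount and does not measure the ratio. IRF7 was the 1 gene of the 37 that was above the filter in no wild-type library, so it could only be tested because knockout cells had it.

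The sensors of viral RNA differed among themselves. DDX58, which encodes RIG-I, a sensor of short RNA with a triphosphate end, had 16.2, 15.3 and 14.6 scaled CPM in knockout libraries, against 4.12, 4.40 and 5.13 in wild-type libraries. It was 3.38-fold higher by the ratio of means (log2 fold change 1.66 ± 0.10, adjusted p = 8.93e-10). DDX60, a helicase reported to assist RIG-I, had 27.0, 27.3 and 26.5 scaled CPM in knockout libraries, against 19.4, 19.3 and 16.7 in wild-type libraries (log2 fold change 0.54 ± 0.06, adjusted p = 2.3e-06). Both genes had groups that did not overlap.

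EIF2AK2, which encodes the RNA-activated kinase PKR that stops translation, had 61.4, 56.7 and 54.6 scaled CPM in knockout libraries, against 51.5, 52.0 and 52.7 in wild-type libraries. This was a small rise (log2 fold change 0.14 ± 0.04, adjusted p = 0.00885), and without the first knockout library it was no longer past the threshold (log2 fold change 0.094, adjusted p = 0.0508). With libraries scaled to equal sums there was no rise (log2 fold change 0.0044, adjusted p = 0.933). The antisense gene GPATCH11, which overlaps exons of EIF2AK2, had a log2 fold change of -0.10 (adjusted p = 0.21). IFIH1, which encodes MDA5, the sensor of long double-stranded RNA, averaged 27.5 ± 1.57 scaled CPM in knockout cells and 27.4 ± 0.41 in wild-type cells, with groups that overlapped. Its 95% interval for the log2 fold change was -0.11 to 0.11 (adjusted p = 0.996), which lies below the interval of DDX58, 1.45 to 1.86. With libraries scaled to equal sums, IFIH1 passed the threshold as lower (log2 fold change -0.14, adjusted p = 0.033). The difference between the genes was not itself tested.

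The 4 genes of ISG15 conjugation were higher by less than 2-fold, while 40.3% of all tested genes were called higher. ISG15 encodes a ubiquitin-like protein that is attached to other proteins during infection, and it had 19.7, 21.7 and 21.1 scaled CPM in knockout libraries, against 15, 15.9 and 14.8 in wild-type libraries (log2 fold change 0.44 ± 0.06, adjusted p = 1.88e-05). HERC5, the main human ligase for ISG15, had 15.2, 15.4 and 15.8 scaled CPM in knockout libraries, against 10.2, 9.72 and 10.8 in wild-type libraries (log2 fold change 0.57 ± 0.07, adjusted p = 4.24e-06). HERC6, its neighbour on chromosome 4 and the ligase for ISG15 in mice, averaged 15.3 ± 1.02 scaled CPM in knockout cells and 12.1 ± 1.11 in wild-type cells (log2 fold change 0.33 ± 0.08, adjusted p = 0.00219). All 3 genes had knockout libraries above every wild-type library.

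USP18 removes ISG15 from proteins and also damps signalling at the type I interferon receptor. It had 8.81, 8.41 and 8.18 scaled CPM in knockout libraries, against 6.85, 7.41 and 7.04 in wild-type libraries (log2 fold change 0.24 ± 0.09, adjusted p = 0.0208). The groups did not overlap, but the call was lost under some alternatives. The log2 fold change was 0.21 (adjusted p = 0.0763) without the first knockout library and 0.24 (adjusted p = 0.0501) without the second. With libraries scaled to equal sums, the log2 fold change of USP18 was 0.11 (adjusted p = 0.262). USP18 lies on chromosome 22, where the median log2 fold change of the 377 tested genes was -0.77, and a near-identical copy, USP41, can take its reads.

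The IFIT family encodes proteins that bind foreign RNA ends and block its translation. All 4 members were higher in knockout cells, against 40.3% of all tested genes. IFIT3 had 21.2, 21.4 and 20.5 scaled CPM in knockout libraries, against 9.91, 10.8 and 12.7 in wild-type libraries (log2 fold change 0.90 ± 0.08, adjusted p = 1.88e-07). IFIT2 had 12.3, 11.8 and 11.9 scaled CPM in knockout libraries, against 6.02, 6.99 and 5.98 in wild-type libraries (log2 fold change 0.88 ± 0.09, adjusted p = 4.19e-07). The antisense gene LIPA overlaps exons of IFIT2, was itself higher (log2 fold change 0.30) and could share reads with it if strand was not used in counting. IFIT1 had 7.36, 8.11 and 8.12 scaled CPM in knockout libraries, against 4.29, 3.73 and 4.68 in wild-type libraries (log2 fold change 0.83 ± 0.11, adjusted p = 5.71e-06). IFIT5 averaged 33.4 ± 1.07 scaled CPM in knockout cells and 23.0 ± 1.12 in wild-type cells (log2 fold change 0.53 ± 0.05, adjusted p = 3.53e-07). The log2 fold changes of the 4 genes thus ran from 0.53 to 0.90. The 95% interval of IFIT5 was 0.42 to 0.64 and that of IFIT3 was 0.72 to 1.08.

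The oligoadenylate synthetases make a short messenger that switches on the RNA-degrading enzyme RNase L, and they were split. OAS1 had 15.7, 14.7 and 17.1 scaled CPM in knockout libraries, against 4.95, 4.36 and 4.63 in wild-type libraries (log2 fold change 1.66 ± 0.09, adjusted p = 4.27e-10). OAS2 had 13.2, 13.3 and 13.5 scaled CPM in knockout libraries, against 5.36, 4.12 and 4.32 in wild-type libraries (log2 fold change 1.45 ± 0.10, adjusted p = 7.14e-09). In both, the lowest knockout library was more than double the highest wild-type library. OAS3, which lies between them on chromosome 12, averaged 27.2 ± 1.58 scaled CPM in knockout cells and 26.3 ± 0.55 in wild-type cells, with overlapping groups (log2 fold change 0.04, 95% interval -0.07 to 0.16, adjusted p = 0.469). The median log2 fold change of the 844 tested genes of chromosome 12 was 0.33. OASL, a relative that lacks the synthetase activity, was low in both groups, with 1.26 to 1.48 scaled CPM in knockout libraries and 1.29 to 1.32 in wild-type libraries (log2 fold change 0.03, 95% interval -0.26 to 0.32, adjusted p = 0.832). ISG20, an RNA exonuclease, had 3.14, 3.52 and 3.02 scaled CPM in knockout libraries, against 0.742, 1.58 and 1.08 in wild-type libraries (log2 fold change 1.22 ± 0.17, adjusted p = 1.54e-05). The wild-type values of ISG20 rest on 66 estimated reads over the 3 libraries.

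The proteins that act at membranes did not move together. IFITM3, which blocks fusion of viruses with endosomes, had 105, 106 and 113 scaled CPM in knockout libraries, against 66.5, 59.1 and 60.5 in wild-type libraries (log2 fold change 0.80 ± 0.04, adjusted p = 6.34e-10). IFITM2, its close paralog, had 50.4, 50.1 and 53.0 scaled CPM in knockout libraries, against 48.9, 47.3 and 47.7 in wild-type libraries (log2 fold change 0.092 ± 0.039, adjusted p = 0.0416). The call of IFITM2 was lost without knockout library 3 (adjusted p = 0.174), without wild-type library 2 (0.104) and without wild-type library 3 (0.0923), and with libraries scaled to equal sums its log2 fold change was -0.045. Reads of these paralogs can be assigned to either gene. BST2 encodes tetherin, which holds budding viruses at the cell surface, and it had 192, 199 and 204 scaled CPM in knockout libraries, against 240, 231 and 236 in wild-type libraries. It was lower in knockout cells by a small amount (log2 fold change -0.25 ± 0.03, adjusted p = 2.4e-06), with no overlap between the groups.

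All 4 of the other restriction proteins were higher in knockout cells, against 40.3% of all tested genes. TRIM22, a ubiquitin ligase that restricts several viruses (chr11:5689689-5737089, GRCh38), had 107, 106 and 107 scaled CPM in knockout libraries, against 5.98, 6.65 and 5.53 in wild-type libraries. This was a 17.7-fold ratio of means (log2 fold change 4.04 ± 0.06, adjusted p = 5.42e-16). MX1, a dynamin-like GTPase that blocks influenza and other viruses (chr21:41420304-41459214, GRCh38), had 20.1, 20.4 and 21.6 scaled CPM in knockout libraries, against 2.97, 4.40 and 4.81 in wild-type libraries (log2 fold change 2.24 ± 0.13, adjusted p = 9.51e-10). For both genes every knockout library was more than 4 times the highest wild-type library.

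SAMD9 and SAMD9L are adjacent paralogs on chromosome 7 that restrict poxviruses. SAMD9 had 68.2, 63.6 and 66.6 scaled CPM in knockout libraries, against 25.2, 27.7 and 25.3 in wild-type libraries (log2 fold change 1.33 ± 0.05, adjusted p = 4.62e-12). SAMD9L averaged 38.3 ± 1.78 scaled CPM in knockout cells and 16.2 ± 0.48 in wild-type cells (log2 fold change 1.22 ± 0.05, adjusted p = 4.59e-11). The median log2 fold change of the 816 tested genes of chromosome 7 was 0.43, and its part in these values was not tested.

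The IFI genes and XAF1 held both a large rise and the largest fall of the set. XAF1, which antagonises the caspase inhibitor XIAP, had 20.7, 20.5 and 19.1 scaled CPM in knockout libraries, against 2.47, 4.02 and 4.41 in wild-type libraries (log2 fold change 2.35 ± 0.15, adjusted p = 2.31e-09). IFI27, whose product acts in mitochondria and at the nuclear envelope (chr14:94104836-94116698, GRCh38), had 1.42, 1.26 and 1.09 scaled CPM in knockout libraries, against 15.8, 15.3 and 16.0 in wild-type libraries. It was 12.5-fold higher in wild-type cells by the ratio of means (log2 fold change -3.21 ± 0.11, adjusted p = 2.12e-12). The flanking paralogs IFI27L1 and IFI27L2, named after their values were seen, had log2 fold changes of -0.15 (adjusted p = 0.141) and -0.52 (adjusted p = 0.000683). With libraries scaled to equal sums, IFI27L1 passed the threshold (-0.28, adjusted p = 0.0103).

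IFI6, a small mitochondrial and endoplasmic reticulum protein related to IFI27, was also lower in knockout cells. It had 34.9, 37.1 and 37.0 scaled CPM in knockout libraries, against 53.9, 51.5 and 55.8 in wild-type libraries (log2 fold change -0.56 ± 0.04, adjusted p = 2.74e-08). IFI35, a leucine zipper protein, averaged 19.6 ± 1.0 scaled CPM in knockout cells and 13.1 ± 0.50 in wild-type cells (log2 fold change 0.57 ± 0.07, adjusted p = 1.94e-06). IFI44 and IFI44L, adjacent paralogs on chromosome 1, had overlapping groups. IFI44 had 8.56 to 9.40 scaled CPM in knockout libraries and 7.83 to 8.71 in wild-type libraries (log2 fold change 0.10, 95% interval -0.09 to 0.28, adjusted p = 0.3). IFI44L had 3.33 to 4.74 scaled CPM in knockout libraries and 3.46 to 5.35 in wild-type libraries (log2 fold change -0.21, 95% interval -0.56 to 0.13, adjusted p = 0.233). Without the first wild-type library, IFI44L passed the threshold as lower (log2 fold change -0.39, adjusted p = 0.0189).

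PARP9 and PARP14 are ADP-ribosylating enzymes of the interferon response, and both were higher. PARP9 had 79.1, 76.1 and 76.02 scaled CPM in knockout libraries, against 30.9, 34.3 and 32.1 in wild-type libraries (log2 fold change 1.24 ± 0.04, adjusted p = 3.79e-12). PARP14 had 158, 151 and 158 scaled CPM in knockout libraries, against 101, 92.8 and 97.2 in wild-type libraries (log2 fold change 0.68 ± 0.03, adjusted p = 2.26e-10). LGALS3BP encodes a secreted glycoprotein that binds galectins, and it fell to 357, 376 and 393 scaled CPM in knockout libraries, against 788, 762 and 785 in wild-type libraries. It was the most abundant gene of the set by scaled CPM and was lower by about the amount that STAT2 was higher (log2 fold change -1.05 ± 0.03, adjusted p = 1.05e-12).

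Levels of different genes were compared per kilobase of annotated exon. BST2 had 177 scaled CPM per kb in knockout cells and 211 in wild-type cells, and LGALS3BP had 105 in knockout cells and 217 in wild-type cells. IFITM3 had 80.1 scaled CPM per kb in knockout cells and 46.0 in wild-type cells, STAT2 had 54.9 in knockout cells and 27.4 in wild-type cells, and IFI6 had 42.0 in knockout cells and 62.1 in wild-type cells. BST2 and LGALS3BP thus had the highest levels in both groups, while IFITM3 and STAT2 stood above IFI6 in knockout cells and below it in wild-type cells. At the low end, IRF7 had 0.975 scaled CPM per kb in knockout cells and 0.0236 in wild-type cells, and ISG20 had 0.438 in knockout cells and 0.154 in wild-type cells. OASL had 0.383 in knockout cells and 0.371 in wild-type cells, and IFI44L had 0.382 in knockout cells and 0.454 in wild-type cells. IFI27 had 0.303 scaled CPM per kb in knockout cells, the lowest level of the set there, and 3.78 in wild-type cells.

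The rest of the interferon pathway was read from 6 lists with the members of the set left out. Of 119 listed genes, 88 were rows of the table and 84 were tested, of which 46 were higher, 20 were lower and 18 did not pass the threshold, with a median log2 fold change of 0.20. The share higher was 54.8% and the share lower 23.8%, against 40.3% and 39.6% of all tested genes, and the share called in either direction was close to the 79.9% of all tested genes. Among 22 interferon ligand genes, IFNE alone was a row of the table, and it was not tested, with 0.863, 1.22 and 1.09 scaled CPM in knockout libraries and 0.412, 0.431 and 0.405 in wild-type libraries. The other 21 ligand genes were not analysed here.

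Of 9 receptors and kinases, 5 were higher (55.6%) and 2 were lower (22.2%), against 40.3% and 39.6% of all tested genes. IFNAR1 averaged 81.1 ± 0.34 scaled CPM in knockout cells and 56.2 ± 0.47 in wild-type cells (log2 fold change 0.52), and IFNAR2 averaged 18.9 ± 1.53 scaled CPM in knockout cells and 14.2 ± 0.39 in wild-type cells (0.40). Both chains of the type I receptor were therefore higher. Of the kinases, JAK2 (log2 fold change 0.99) and TYK2 (0.24) were higher and JAK1 (-0.14) was lower, as was IFNGR1 (-0.19), the ligand-binding chain of the interferon gamma receptor. The adjusted p-values of these 6 genes were 3.74e-09 for JAK2, 1.53e-09 for IFNAR1, 0.000132 for IFNAR2, 9.34e-05 for TYK2, 0.000494 for JAK1 and 0.0003 for IFNGR1.

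Of the 9 tested inhibitors of signalling, 3 were higher and 3 were lower, against 40.3% and 39.6% of all tested genes, led by SOCS3 (log2 fold change 0.88), PTPN11 (0.64), PIAS1 (-0.82) and PTPN1 (-0.33). SOCS1, a direct inhibitor of JAK kinases, was under the filter with 0.216 to 0.815 scaled CPM in knockout libraries and 0.33 to 0.431 in wild-type libraries.

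Of 18 nucleic acid sensors, adaptors and other signalling genes upstream of interferon, 11 were higher (61.1%) and 5 were lower (27.8%), against 40.3% and 39.6% of all tested genes. TLR3, the endosomal receptor for double-stranded RNA, averaged 25.3 ± 1.46 scaled CPM in knockout cells and 11.3 ± 0.53 in wild-type cells (log2 fold change 1.13 ± 0.07, adjusted p = 1.2e-09). MAVS, the adaptor of RIG-I and MDA5, averaged 244 ± 4.55 scaled CPM in knockout cells and 184 ± 4.37 in wild-type cells (log2 fold change 0.41 ± 0.03, adjusted p = 6.19e-09). IRF3, the factor that MAVS activates, had a log2 fold change of 0.22 (adjusted p = 0.000159), which was 0.081 (adjusted p = 0.0714) with libraries scaled to equal sums. The largest rises of the list were those of IRF5 (log2 fold change 1.65), a factor activated by Toll-like receptors, and TLR4 (1.31), the receptor for bacterial lipopolysaccharide.

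The 2 largest falls of that list were those of TREX1 and TMEM173. TMEM173, which encodes STING, the adaptor of cytosolic DNA sensing, had 4.28, 4.59 and 4.26 scaled CPM in knockout libraries, against 19.4, 15.8 and 17.0 in wild-type libraries (log2 fold change -1.87 ± 0.09, adjusted p = 1.55e-10). TREX1, an exonuclease that clears cytosolic DNA, had 0.177, 0.133 and 0.916 scaled CPM in knockout libraries, against 3.36, 3.34 and 5.05 in wild-type libraries (log2 fold change -2.36 ± 0.26, adjusted p = 1.14e-06). In both genes no knockout library reached the wild-type range. All 3 knockout values of TREX1 were under the filter, and they rest on 38.7 estimated reads, so it was tested because wild-type cells had it, and its fitted fold change depends on the pseudocount.

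Of 37 further interferon-stimulated genes that were tested, 22 were higher (59.5%) and 8 were lower (21.6%), against 40.3% and 39.6% of all tested genes. The 22 include a gene that was under the filter in every wild-type library and was tested because knockout cells had it. TRIM5 (log2 fold change 1.81), the retroviral capsid restriction factor, and SLFN5 (1.39), a Schlafen family member, had the largest rises. CXCL10, a chemokine that attracts T cells, fell to 1.92 ± 0.20 scaled CPM in knockout cells, against 6.13 ± 0.23 in wild-type cells (log2 fold change -1.46), and IFI16, a nuclear DNA sensor, to 52.3 ± 1.73 scaled CPM, against 107 ± 4.66 in wild-type cells (-1.02). Of 11 tested genes best known for induction by interferon gamma, 5 were higher (45.5%) and 2 were lower (18.2%), against the same background. Among them the guanylate-binding proteins GBP3 (log2 fold change 2.32) and GBP2 (1.07) had the largest rises, and IL18BP (-0.37) and GBP1 (-0.14) were lower. The call of GBP1 (adjusted p = 0.0277) was lost without knockout library 2 (adjusted p = 0.124), knockout library 3 (0.0586) or wild-type library 2 (0.147). It was also lost in limma without the trend (adjusted p = 0.0861).

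**Figure D3:**
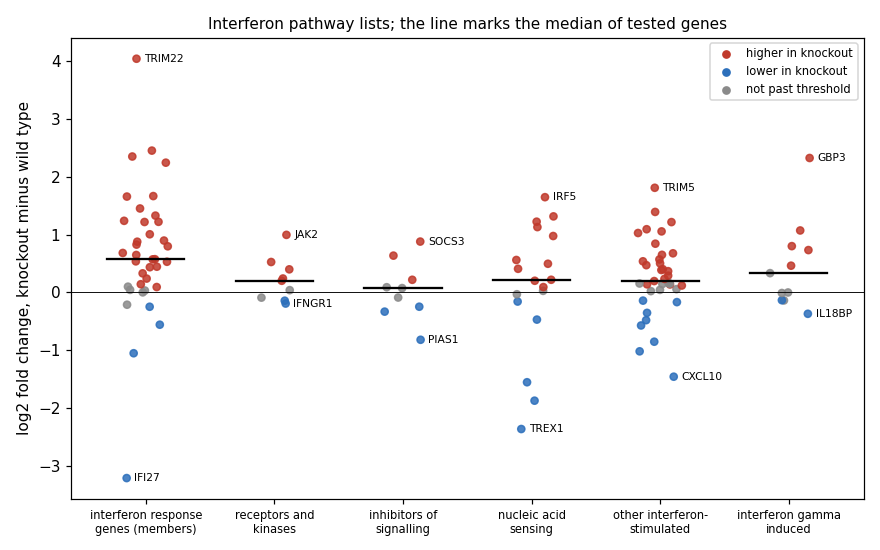
Log2 fold change, knockout minus wild type, of each tested gene of the set and of 5 other interferon pathway lists; each point is a gene, coloured by its call, and the black line is the median of the list. The set has a median of 0.57 and the other lists lie lower, while every list holds both red and blue points.

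Several members lie next to each other in the genome, so their neighbours were read as well, chosen after their values were seen. TRIM22 ends a run of related genes on chromosome 11, and TRIM6, TRIM34 and TRIM5, whose left ends lie at -93.6, -69.9 and -26.1 kb from that of TRIM22, were all higher. The annotated span of TRIM5 encloses TRIM22 on the opposite strand, with no exon base in common. TRIM6 averaged 12.1 ± 1.2 scaled CPM in knockout cells and 3.55 ± 0.32 in wild-type cells (log2 fold change 1.64), TRIM34 averaged 5.47 ± 0.45 in knockout cells and 2.15 ± 0.09 in wild-type cells (1.17), and TRIM5 averaged 67.3 ± 2.13 in knockout cells and 18.9 ± 1.49 in wild-type cells (1.81). On chromosome 10, the annotated span of LIPA (log2 fold change 0.30) encloses IFIT2, IFIT3 and IFIT1 on the opposite strand. IFIT5 lies between that span and SLC16A12, which was lower (-0.75). On chromosome 12, OAS3 starts 31.6 kb after OAS1 and OAS2 starts 71.6 kb after it.

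DTX3L, which encodes the ubiquitin ligase partner of PARP9 and starts beside it on the opposite strand, averaged 122 ± 1.15 scaled CPM in knockout cells and 117 ± 2.76 in wild-type cells (log2 fold change 0.056, adjusted p = 0.0953). PARP9 itself had a log2 fold change of 1.24. With libraries scaled to equal sums, DTX3L was lower (-0.082, adjusted p = 0.0182). Exons of the 2 genes overlap on opposite strands, so shared reads cannot be told apart if strand was not used in counting.

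**Figure D4:**
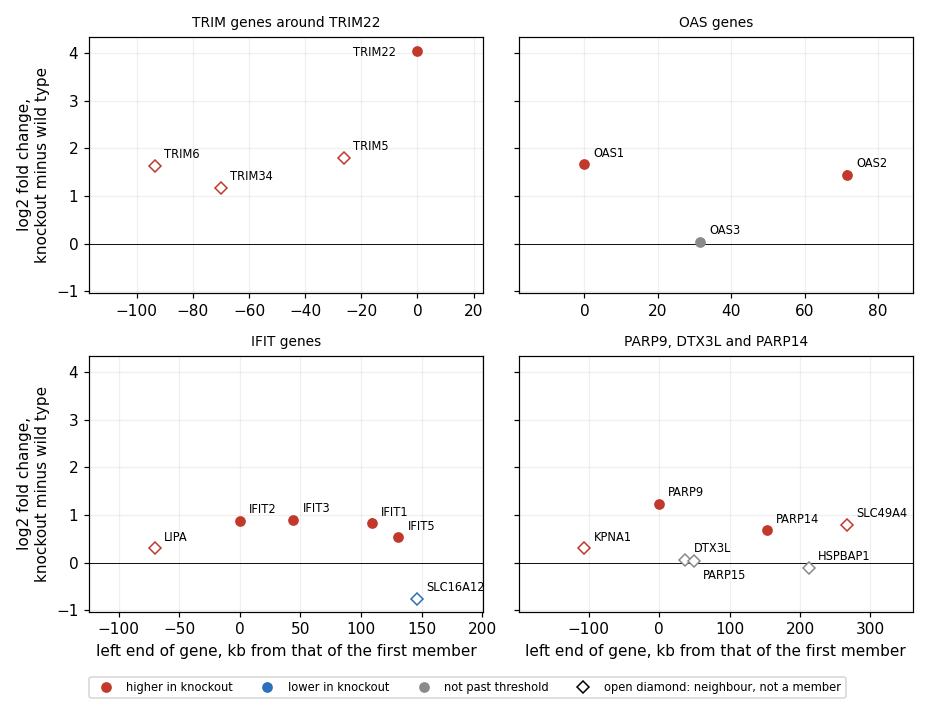
Log2 fold change, knockout minus wild type, against the distance in kb of each gene's left end, on the plus strand, from that of the first member, for the TRIM, OAS, IFIT and PARP clusters; filled circles are members of the set, open diamonds are neighbours, and colours give the call. All 4 TRIM genes lie above 1, OAS3 lies at 0.04 between OAS1 and OAS2, and DTX3L lies at 0.056 beside PARP9.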

How the data were processed

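Paired-end RNA sequencing of poly(A) RNA was compared between 3 PXR knockout and 3 wild-type libraries. The deposited signal values are scaled CPM on a linear scale, although the table's name speaks of log2; per the submitters' processing notes, the build was hg38 and the tools included Bowtie2, edgeR and limma, FastQC and Trim Galore, with no order or settings. Titles of the samples point to RSEM, and values were often fractions of a read: 67.9% to 76.6% of values under 20 reads were whole within 0.006 reads, so no count test was run. Depth was estimated from the value of 1 read in each library. A set of 14 second pseudoautosomal rows was left out, and 21 symbols in date form were restored.

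From these values, log2(scaled CPM + 0.5) was fitted by group with limma 3.58.1 in R 4.3.3 (lmFit, eBayes with trend, two-sided, Benjamini-Hochberg over 16219 genes above 1 in at least 3 of the 6 libraries). The fit was checked only on simulated data in which far fewer genes changed than were called here. The threshold was an adjusted p under 0.05. Gene positions and exon lengths came from GENCODE 29 (16608 gene IDs matched without version) and sequences from RefSeq (GRCh38.p14). The library kit keeps strand; whether counting used it is not given in the sources used here. The members and all gene lists were chosen with earlier results of these data known. All members could be named, with values in every library for up to 3 of each role with the largest change and for 8 core genes; of each other list, the 2 largest rises and 2 largest falls were named, with 9 pathway genes, of which 1 is not reported here. Alternatives were the pseudocount (0.1, 1), the filter (none, above 5), scaling to equal sums, quantile normalization, limma without trend, a replicate block and leaving out each library. Same-numbered libraries did not deviate together, so the main fit has no block. Groups of 3 libraries were not screened for single outlying values.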

Additional observations from a re-analysis of the deposited data

How the results depend on the processing

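Over 14 alternatives, 25 to 28 interferon response genes were higher and 4 or 5 lower, 36 to 48 other pathway genes were higher and 17 to 25 lower, and 10753 to 13170 genes of the whole table passed the threshold. Leaving out each library gave 26 to 28 members higher and 4 or 5 lower. With a filter above 5, 33 members were tested. Scaling to equal sums moved the members' median log2 fold change to 0.44 and split all calls into 5358 higher and 7681 lower, against 6534 and 6426; it reversed the sign of IFI44 (-0.032), IFIH1 (-0.14, adjusted p = 0.033), IFITM2 (-0.045), OAS3 (-0.092), OASL (-0.068) and DTX3L (-0.082). Quantile normalization reversed IFIH1 (-0.021) and OASL (-0.11) and left 5932 genes higher and 7031 lower. Leaving out each library gave -0.046 to 0.024 for IFIH1 (below 0 without knockout library 1 or wild-type library 1) and -0.018 to 0.067 for OASL (below 0 without knockout library 1). EIF2AK2 lost its call under equal sums (adjusted p = 0.933), USP18 under equal sums (0.262) and quantile normalization (0.0962), and IFITM2 under quantile normalization (0.166) and without the trend (0.073). Of 514 member values under an alternative, 491 kept their direction and their side of the threshold. The cause of these changes was not tested. Library numbers did not pair the samples (correlations of same-numbered deviations -0.020, -0.061 and 0.025); with the replicate block, 27 members were higher and 4 lower, IFITM2 losing its call (0.0635), and 12916 genes passed. Depth limits IRF7, ISG20 and OASL most, and wild-type library 1 was the shallowest.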

Other observations

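Outside the interferon pathway, some neighbours of members, chosen after their values were seen, were low in wild-type cells and higher in knockout cells. They included ANXA10, near DDX60, with means of 10.1 scaled CPM in knockout cells and 0.54 in wild-type cells. HAPLN3, the next tested protein-coding gene after ISG20, had means of 20.8 in knockout cells and 1.65 in wild-type cells. FGR, near IFI6, went the other way, with means of 0.0103 in knockout cells and 3.17 in wild-type cells. TMPRSS2, the serine protease beside MX1 on chromosome 21 that primes spike proteins of respiratory viruses, had 13.6, 14.4 and 15 scaled CPM in knockout libraries, against 1.24, 1.01 and 1.17 in wild-type libraries (log2 fold change 3.18 ± 0.11, adjusted p = 2.57e-12 by limma). SIGIRR, which damps signalling of the interleukin 1 receptor and Toll-like receptors and lies near IFITM3 on chromosome 11, had 6.25, 5.78 and 4.67 scaled CPM in knockout libraries, against 0.165, 0.144 and 0 in wild-type libraries, where the fitted fold change depends on the pseudocount. VPS50, near SAMD9L on chromosome 7, had a smaller rise (log2 fold change 0.77 ± 0.04, adjusted p = 2.86e-10).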
